A study of Mus musculus with 46 samples.

Results

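The genes described here encode 32 plasma proteins of blood coagulation, fibrinolysis and complement that the liver makes, and they were followed in mouse liver over 16 d after 1 dose of carbon tetrachloride (CCl4). They were chosen by name, 18 for coagulation and fibrinolysis and 14 for complement, and each was read from the probe set that names exactly that gene and has the highest mean over all arrays. Such a probe set was found for 30 of the 32, among 18193 genes with one on the array, and all 30 were among the 13239 genes that passed the filter on low values. C3 and Cpb2 were not analysed here. CCl4 is made toxic by enzymes of the hepatocytes around the central veins, and these cells die. The livers came from male C57BL/6N mice, 8 to 10 weeks old, and CCl4 was given into the peritoneum at 1.6 g/kg with olive oil as the vehicle. The 46 arrays form 9 groups, namely 5 arrays of untreated control mice taken as time zero, 5 arrays per time at 2 h and 8 h, 5 arrays per time at 1 d, 2 d, 4 d, 6 d and 8 d, and 6 arrays at 16 d. The controls had neither oil nor an injection, so both are part of each comparison with control. Their treatment field names CCl4 as well, whereas their titles and the design text give them as untreated. Nothing in the labels says that each array of a group came from its own mouse, so the spread behind each p-value is that between arrays and may be technical only.

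Coagulation factors circulate as inactive proteases and cofactors that activate each other in a cascade, ending in thrombin, which turns fibrinogen into fibrin. Antithrombin and the protein C system hold the cascade in check, and plasmin, made from plasminogen, dissolves the clot. Complement is a related protease cascade of innate immunity that is started by antibodies, by lectins that bind microbial sugars or by a spontaneous alternative route, and it ends in a membrane attack complex that pierces the target. Hepatocytes make most of these proteins, and clotting tests of the blood are used in the clinic to judge how well the liver works.

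Values are RMA log2 expression values as deposited. Differences are log2 differences between group means with the standard error of the limma fit, and a gene was called where limma's adjusted p (Benjamini-Hochberg over all genes tested) was under 0.05. All 7 hepatocyte markers of a list were among the genes tested. Against control, 6 of them were lower at 1 d, as were 25.1% of all genes tested. The summed level of the 7 on the linear scale was 76392 to 89840 at 1 d, against 105703 to 108779 in controls. At 2 h the sum was 105673 to 112720 and so not below controls, at 8 h 92534 to 99185 and at 2 d 84745 to 96581. In whole tissue, fewer hepatocytes and less RNA per hepatocyte cannot be told apart. The 3 prime minus 5 prime value of the Gapdh control probe sets, a sign of RNA integrity, averaged 0.136 ± 0.134 at 2 h, 0.167 ± 0.0809 at 8 h and 0.169 ± 0.0925 at 1 d (SD, n = 5 each), against 0.347 ± 0.0646 in controls (SD, n = 5). The Gapdh value was thus highest in controls. For the beta-actin control probe sets it averaged 1.38 ± 0.129 at 2 h, 1.31 ± 0.181 at 8 h and 1.39 ± 0.133 at 1 d. Controls had 1.46 ± 0.088 (SD, n = 5 each). Arrays at 1 d differed most among themselves, with correlations between arrays down to 0.947. Over the 30 members, the 5 arrays at 1 d had mean differences from the control mean of -1.21, -0.47, -0.91, -0.70 and -0.64.

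The coagulation and complement genes fell together within hours, and from 6 d on none was called by limma. At 2 h 22 of 30 were lower than control and 0 higher, at 8 h 30 and 0, at 1 d 28 and 0, at 2 d 17 and 1, and at 4 d 2 and 1. Among all genes tested, 19.9% were lower and 6.41% higher at 2 h, 24.2% and 17.7% at 8 h, 25.1% and 25% at 1 d, 18.9% and 21.1% at 2 d, and 2.21% and 4.74% at 4 d. At 6 d, 8 d and 16 d limma called 0 members in either direction. The share of all genes called lower and higher was 0% and 0.0227% at 6 d, 0.0755% and 0.068% at 8 d, and 1.1% and 0.415% at 16 d. At an unadjusted p under 0.05 in limma, 0 members were lower and 1 was higher at 6 d. The counts were 3 and 2 at 8 d, and 7 and 0 at 16 d, and 0 were higher at 2 h, 8 h or 1 d. No share of all genes at an unadjusted p is given, so these counts cannot be set against the shares above. The F-test over all times called all 30 members, as it did 83.4% of all genes.

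The median difference of the members from control was -0.37 at 2 h, -0.64 at 8 h, -0.67 at 1 d, -0.33 at 2 d and -0.03 at 4 d, and lay between -0.11 and -0.01 later. The median of all genes lay between -0.04 and 0.00 at every time. All treated arrays lay below all control arrays for 21 members at 2 h, 28 at 8 h, 24 at 1 d, 16 at 2 d and 2 at 4 d. No matching count is given for all genes tested, so these numbers describe the members alone and do not set them apart from other genes. Group means were lowest at 8 h for 12 members, at 1 d for 17 and at 2 d for 1. By the probe set used for each, 28 of the 30 members were called lower at 1 time or more and higher at none. The other 2, Pros1 and C4bp, were called in both directions. Leaving out each array in turn gave 17 to 24 members lower at 2 h, 29 to 30 at 8 h, 27 to 30 at 1 d and 15 to 18 at 2 d. With the Gapdh value as a covariate, 13 members were lower at 2 h. That value itself differed between 2 h and control, so the covariate may take up part of the group difference. No share of all genes called is given for this fit.

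**Figure D1:**
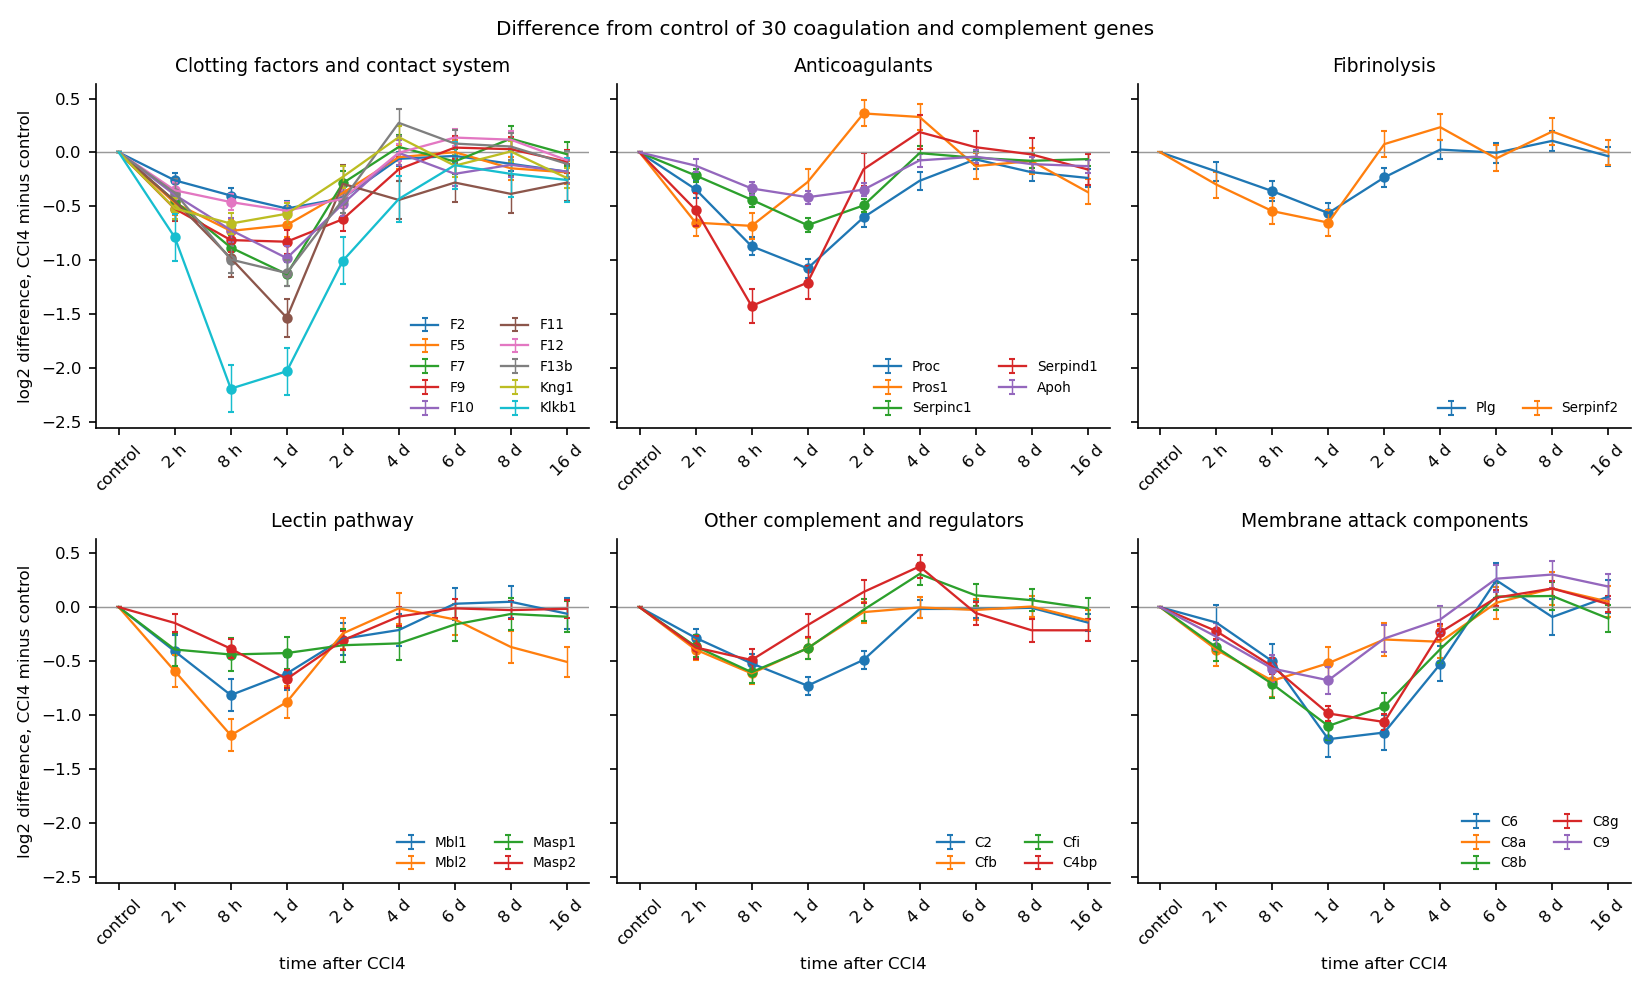
Log2 difference from control (CCl4 minus control, ± standard error of the limma fit) of the 30 members at each time, in 6 panels by role; times are evenly spaced, and filled circles mark differences called at an adjusted p under 0.05. Most members are lowest at 8 h or 1 d and near 0 from 4 d on, Klkb1 goes deepest at -2.19, C6 and C8g are still at -1.16 and -1.07 at 2 d, and Pros1 and C4bp pass above 0 by 2 d.

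**Figure D2:**
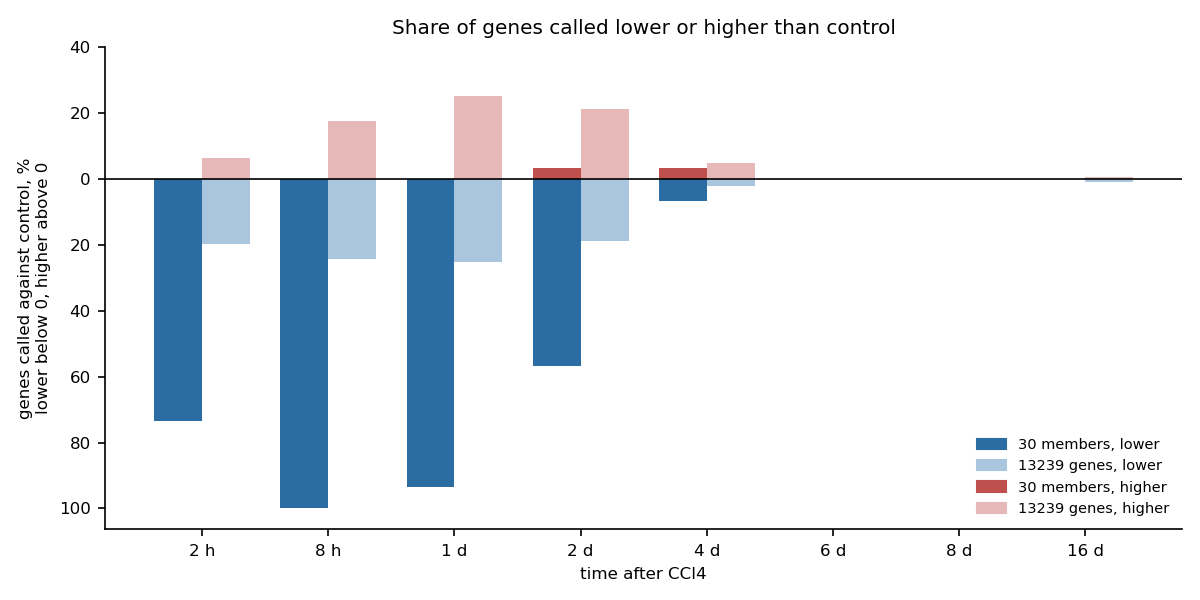
Share of genes, in percent, called lower (below the line) or higher (above it) than control at each time, for the 30 members and for all 13239 genes tested. The share of members called lower is above that of all genes from 2 h to 4 d, with 30 of 30 at 8 h against 24.2% of all genes. At 4 d it rests on 2 members, and leaving out each array in turn gave 0 to 2.

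Among the clotting factors, all 10 genes fell at 8 h and at 1 d, and at 1 d Klkb1 and F11 fell furthest. Klkb1, which encodes prekallikrein, the protease zymogen that activates factor XII on contact with negatively charged surfaces, was 4.57-fold lower at 8 h and 4.09-fold lower at 1 d. Its log2 values were 8.66, 9.11, 8.00, 8.55 and 7.88 at 8 h and 7.08, 9.11, 8.74, 9.08 and 9.0 at 1 d, against 10.66, 10.60, 10.39, 10.60 and 10.90 in controls. All arrays at both times lay below all controls, and array 1 at 1 d lay far below the other arrays of its group. The difference was -2.19 ± 0.22 at 8 h (adjusted p = 6.15e-11), -2.03 ± 0.22 at 1 d (2.62e-10, and -1.65 without array 1 at 1 d) and -1.01 ± 0.22 at 2 d (0.000284). At 4 d it was -0.43 ± 0.22 (0.275).

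F11, which encodes factor XI, the protease that activates factor IX, had log2 values of 6.42, 7.73, 6.89, 7.76 and 7.95 at 1 d, against 8.87, 8.80, 9.0, 8.66 and 9.09 in controls. The groups did not overlap, and arrays 1 and 3 at 1 d were the lowest. F11 differed by -0.98 ± 0.18 at 8 h (adjusted p = 1.14e-05) and by -1.53 ± 0.18 at 1 d (1.35e-09, and -1.30 without array 1 at 1 d), and at 2 d by -0.29 ± 0.18 (0.184). From 8 h to 1 d it fell by a further 0.55 ± 0.18 on the log2 scale (0.0133), a step that missed the threshold without array 1 at 1 d (-0.32, 0.112) or array 3 at 1 d (-0.44, 0.0627). F11 was the only clotting factor gene of the 10 that limma called at that step.

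Klkb1 and F11 arose by gene duplication and encode proteins of the same domain plan. They lie side by side on mouse chromosome 8, with 0 annotated genes and 4632 bases between them in RefSeq's annotation of GRCm38.p6. Since they were the lowest of the clotting factors against control at 1 d, the 250 bases before the start of each are shown, from RefSeq's sequence of that build. Both strands were searched for 6 short motifs, GTTAAT (part of the HNF1 site), CAAAGTNC (HNF4), TTGCNNAA (C/EBP), TGTTTAC (FOXA), TTCNNNGAA (STAT, the same on both strands) and TATAAA (bound by TBP), and matches are in capitals. No matches overlapped in the sequences shown.
Klkb1, chr8:45294836-45295085, reverse strand: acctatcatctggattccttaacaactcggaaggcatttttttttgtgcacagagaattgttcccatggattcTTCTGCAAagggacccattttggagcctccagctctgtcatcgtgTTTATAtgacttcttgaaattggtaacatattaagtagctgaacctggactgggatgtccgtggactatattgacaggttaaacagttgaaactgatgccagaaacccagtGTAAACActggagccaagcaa
F11, chr8:45262032-45262281, reverse strand: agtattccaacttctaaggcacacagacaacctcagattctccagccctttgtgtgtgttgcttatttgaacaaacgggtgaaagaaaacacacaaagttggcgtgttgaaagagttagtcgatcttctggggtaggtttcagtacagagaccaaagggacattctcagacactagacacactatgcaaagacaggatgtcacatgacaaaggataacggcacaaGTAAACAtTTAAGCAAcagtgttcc
In both sequences TGTTTAC was read on the reverse strand just before the start, at -21 to -15 for Klkb1 and -25 to -19 for F11, with -1 as the last base before the start. TTGCNNAA was read on the reverse strand at -177 to -170 in Klkb1 and at -17 to -10 in F11, and TATAAA, also reversed, at -132 to -127 in Klkb1. A promoter sequence was found for 23 of the 30 members. TGTTTAC occurred in 3 of these 23 (13%), Apoh, F11 and Klkb1, and in 3.09% of 27025 promoters of the same length. As duplicated neighbours, F11 and Klkb1 may not be independent cases. The other motifs occurred in 4 members (17.4%) against 6.52% of all promoters for GTTAAT, 1 (4.35%) against 3.46% for CAAAGTNC, 4 (17.4%) against 9.55% for TTGCNNAA, 4 (17.4%) against 7.18% for TTCNNNGAA and 1 (4.35%) against 13% for TATAAA. Such matches describe the letters only, and binding was not measured.

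The other contact genes, F12 and Kng1, and F13b fell less far than F11 at 1 d. F12, which encodes factor XII, the protease that starts the contact pathway, differed by -0.46 ± 0.08 at 8 h (adjusted p = 3.90e-06) and -0.54 ± 0.08 at 1 d (1.76e-07). Kng1, which encodes the kininogen that carries prekallikrein and factor XI, differed by -0.66 ± 0.10 at 8 h (7.16e-07) and was not called at 2 d (-0.23, 0.0689), whereas its other probe set was lower at 2 d (-0.35 ± 0.10, limma's p adjusted over all probe sets with 1 gene, 0.00553). F13b, which encodes the carrier subunit of the fibrin-linking factor XIII, fell by 0.99 ± 0.12 on the log2 scale at 8 h (1.18e-08) and by 1.12 ± 0.12 at 1 d (6.75e-10). At 4 d all 5 arrays of F13b lay above all controls, with a difference of 0.27 ± 0.12 that was not called (0.211).

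The genes of the vitamin K-dependent factors fell as well, and so did F5. F7, which encodes the protease that starts clotting together with tissue factor, fell most of these, by 1.13 ± 0.11 on the log2 scale at 1 d (adjusted p = 5.26e-11). F9, whose product works with factor VIII, differed by -0.83 ± 0.11 at 1 d (3.90e-08), and F10, the gene of the protease that cuts prothrombin, by -0.98 ± 0.11 (2.08e-09). F2, the gene of prothrombin itself, differed by -0.52 ± 0.07 (1.63e-08). F5, the gene of the cofactor of factor X, differed by -0.73 ± 0.11 at 8 h (4.56e-07) and -0.67 ± 0.11 at 1 d (1.81e-06). At 2 d these 5 genes were still lower, between -0.62 for F9 and -0.29 for F7, and the call of F7 (0.0409) held in 3 of 10 fits that left out 1 array. At 4 d none of the 10 clotting factor genes was called by limma.

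Of the enzymes that prepare these factors, Vkorc1, the vitamin K epoxide reductase that warfarin inhibits, fell by 0.77 ± 0.08 on the log2 scale at 8 h (adjusted p = 9.00e-11) and was still lower at 4 d (-0.24 ± 0.08, 0.0464). Ggcx, the carboxylase that modifies the vitamin K-dependent factors, fell by 0.56 ± 0.11 at 8 h (4.63e-05). Vkorc1l1, a paralog of Vkorc1, rose by 0.86 ± 0.09 at 8 h (5.09e-10), and Mcfd2, part of the receptor that carries factors V and VIII out of the endoplasmic reticulum, rose by 0.58 ± 0.10 at 1 d (1.02e-05). In this list of 9 genes 4 were lower and 2 higher at 8 h, and 3 were lower and 3 higher at 1 d, with medians of -0.08 and 0.01. The shares over all genes tested were 24.2% lower and 17.7% higher at 8 h, and 25.1% and 25% at 1 d.

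All 5 anticoagulant genes fell at 8 h. Serpind1, which encodes heparin cofactor II, an inhibitor of thrombin, was 2.69-fold lower at 8 h. Its log2 values were 9.93, 10.20, 9.34, 9.81 and 9.32 at 8 h and 9.07, 10.57, 9.86, 10.07 and 10.12 at 1 d, against 11.21, 11.07, 11.19, 11.04 and 11.22 in controls. Neither treated group overlapped with control, and array 1 at 1 d was again the lowest. The difference was -1.43 ± 0.15 at 8 h (adjusted p = 4.32e-10), -1.21 ± 0.15 at 1 d (1.51e-08, and -0.99 without array 1 at 1 d) and -0.16 ± 0.15 at 2 d (0.429). Proc, which encodes protein C, the protease that inactivates factors V and VIII, fell by 1.08 ± 0.09 on the log2 scale at 1 d (1.42e-13) and by 0.60 ± 0.09 at 2 d (2.92e-07). At 4 d its value was -0.26 ± 0.09 (0.0509), with all 5 arrays below all controls.

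Serpinc1, the gene of antithrombin, differed by -0.68 ± 0.06 at 1 d (adjusted p = 9.21e-12) and by -0.49 ± 0.06 at 2 d (3.80e-08). Apoh, whose product binds anionic phospholipids, was lowest at 1 d, at -0.42 ± 0.06 (4.20e-07), and its other probe set at 2 d, at -0.67 ± 0.09 (limma's p adjusted over all probe sets with 1 gene, 1.03e-07). Pros1, the gene of protein S, the cofactor of protein C, is described with C4bp. Both fibrinolysis genes read were lowest at 1 d. Plg, the gene of plasminogen, differed by -0.56 ± 0.09 (2.00e-06) and Serpinf2, which encodes the main inhibitor of plasmin, by -0.65 ± 0.12 (1.85e-05). At 2 d Plg was still called (-0.23 ± 0.09, 0.0400), in 4 of 10 fits that left out 1 array, and Serpinf2 was not (0.08 ± 0.12, 0.633).

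Of the 13 complement genes read, 9 were lower at 2 h, 13 at 8 h, 12 at 1 d, 5 at 2 d and 2 at 4 d, and of the 17 coagulation and fibrinolysis genes 13, 17, 16, 12 and 0 at the same times. In the lectin pathway, Mbl2 and Mbl1, which encode mannose-binding lectins, differed by -1.19 ± 0.15 (adjusted p = 9.06e-09) and -0.82 ± 0.15 (1.64e-05) at 8 h. At 2 d they were at -0.24 ± 0.15 (0.184) and -0.29 ± 0.15 (0.113). Mbl2 was also low at 16 d, at -0.51 ± 0.14 (0.0519). That value passed the threshold without array 1 at 16 d (0.0415) and without control array 2 (0.0357). Masp2, the gene of the lectin-bound protease that cuts C4 and C2, differed by -0.67 ± 0.09 at 1 d (1.73e-08), and its other probe set by -1.37 ± 0.15.

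Masp1, which encodes another lectin-bound protease, had the weakest F-test of the members (adjusted p = 0.0267 in limma), and its 5 probe sets did not move together. The probe set with the highest mean differed by -0.44 ± 0.15 at 8 h (0.0178) and -0.43 ± 0.15 at 1 d (0.0189). Without array 1 at 1 d the 1 d difference was -0.18 (0.209). Of the other 4 probe sets, 3 were called above control at 2 d and at 4 d, and at 4 d they were at 0.51 ± 0.08, 0.39 ± 0.09 and 0.43 ± 0.08 (limma's p adjusted over all probe sets with 1 gene, 4.39e-05, 0.00778 and 0.000563), where the probe set with the highest mean was at -0.34 ± 0.15 (0.267). The probe sets at 0.51 and 0.39 at 4 d were lower than control at 8 h, at -0.26 ± 0.08 and -0.26 ± 0.09 (limma, adjusted likewise, 0.0148 and 0.0267). The gene is known to give rise to several transcripts with different ends, and which of them each probe set reads was not examined. F10 also differed by probe set at 2 d, where its highest probe set was at -0.48 ± 0.11 and its other 2 at -0.01 ± 0.15 and -0.03 ± 0.14. For C2 the 3 probe sets were at -0.73 ± 0.08 (the highest), -1.10 ± 0.10 and -1.09 ± 0.09 at 1 d. No member had probe sets called in opposite directions at the same time.

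**Figure D3:**
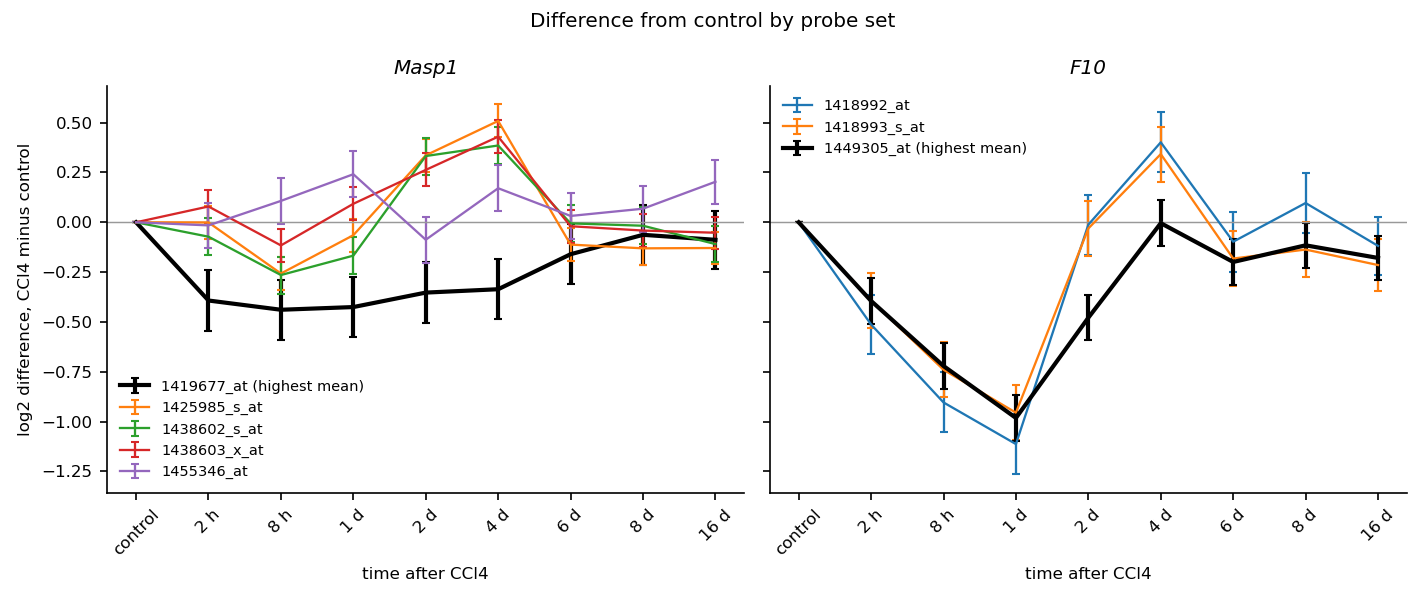
Log2 difference from control (CCl4 minus control, ± standard error) of each probe set that names only Masp1 (5 probe sets) or F10 (3), over the 8 times. Black marks the probe set with the highest mean, used for the gene; 3 Masp1 probe sets lie above 0 at 2 d and 4 d, where the black one is below 0.

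Around the C3 step, C2, the gene of the protease of the classical and lectin convertases, differed by -0.73 ± 0.08 at 1 d (adjusted p = 1.32e-09) and by -0.49 ± 0.08 at 2 d (9.11e-06). Cfb, its counterpart in the alternative pathway, was lowest at 8 h (-0.61 ± 0.10, 1.30e-06) and stood at -0.05 ± 0.10 at 2 d (0.731). Cfi, the gene of the protease that inactivates C3b and C4b, was likewise lowest at 8 h (-0.60 ± 0.10, 4.09e-06) and at -0.02 ± 0.10 at 2 d (0.868). Whether C2 differs from Cfb and Cfi in its course was not tested.

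Of the 5 membrane attack genes, C6, C8b and C8g were still far below control at 2 d. C6, whose product joins C5b to start the complex, had log2 values of 7.68, 8.12, 8.09, 8.50 and 8.28 at 1 d and 7.97, 8.09, 8.28, 8.51 and 8.13 at 2 d, against 9.87, 9.66, 9.60, 8.69 and 8.98 in controls. All arrays at both times lay below all controls, although control arrays 4 and 5 lay well below the other controls. The difference of C6 was -0.50 ± 0.16 at 8 h (adjusted p = 0.0110, and 0.0678 without control array 1), -1.22 ± 0.16 at 1 d (3.73e-08) and -1.16 ± 0.16 at 2 d (2.29e-07). C8b and C8g, which encode the beta and gamma chains of C8, differed by -1.10 ± 0.13 (1.54e-09) and -0.99 ± 0.07 (2.93e-14) at 1 d and by -0.92 ± 0.13 (1.79e-07) and -1.07 ± 0.07 (2.97e-15) at 2 d. C8g was the only member of the 30 whose lowest mean was at 2 d.

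C8a, the gene of the alpha chain of C8, was lowest at 8 h (-0.68 ± 0.15, adjusted p = 0.000206), and C9, whose product forms the pore, at 1 d (-0.68 ± 0.12, 1.45e-05). At 2 d they were at -0.30 ± 0.15 (0.104) and -0.29 ± 0.12 (0.0575). At 4 d C6 and C8g were the 2 members called lower, at -0.53 ± 0.16 (0.0383) and -0.23 ± 0.07 (0.0438), and C8b was at -0.39 ± 0.13 (0.0542). The 4 d call of C6 held in 4 of 10 fits that left out 1 array, with an adjusted p of up to 0.156 (without control array 1), and that of C8g in 4 of 10, with up to 0.172 (without array 1 at 4 d). Both C6 calls at 8 h and 4 d were lost with the Gapdh covariate (0.204 and 0.241).

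From 8 h to 1 d 6 members fell further, namely C6, C8b, C8g, F11, Serpinc1 and Masp2, and 2 rose, Pros1 and C4bp, where 10.9% of all genes fell and 20.8% rose. C6 fell by 0.72 ± 0.16 on the log2 scale (adjusted p = 0.000526) and C8g by 0.44 ± 0.07 (8.97e-06), and in both the 1 d arrays lay below all 8 h arrays. The counts at this step depended on single arrays. Without array 1 at 1 d, 3 members fell and 7 rose, Klkb1 (0.54, 0.00422) and Serpind1 (0.44, 0.00808) among them, and without array 2 at 1 d, 13 fell and 0 rose. Without array 5 at 1 d 10 fell, without array 3 at 1 d or array 2 at 8 h 4 rose, and without array 1, 3 or 5 at 8 h 1 rose.

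From 1 d to 2 d 20 members rose and 0 fell, where 17.4% of all genes rose and 15% fell, and from 2 d to 4 d 19 rose and 0 fell, where 13.4% rose and 17.9% fell. At an unadjusted p under 0.05 in limma, 0 members fell at either step, and no share of all genes at that threshold is given. Between 1 d and 2 d F11 rose by 1.24 ± 0.18 (adjusted p = 3.64e-07), Serpind1 by 1.05 ± 0.15 (7.12e-07), Klkb1 by 1.02 ± 0.22 (0.000243) and F7 by 0.84 ± 0.11 (1.31e-07). Of the 5 membrane attack genes, C9 was called at that step (0.39 ± 0.12, 0.0132), whereas C6 (0.06 ± 0.16), C8a (0.22 ± 0.15), C8b (0.18 ± 0.13) and C8g (-0.08 ± 0.07) were not. Between 2 d and 4 d C8g rose by 0.83 ± 0.07 (1.39e-11), C6 by 0.64 ± 0.16 (0.00249) and C8b by 0.53 ± 0.13 (0.00132), with no overlap between the groups. Whether the membrane attack genes differ from the other members in their time of return was not tested. With only the groups compared in the fit, 9 members were higher at 2 d than at 1 d.

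By the probe set used for each gene, Pros1 and C4bp were the 2 members called above control after their fall. Other probe sets of Masp1, given above, took such a course too. In humans protein S circulates in part bound to C4b-binding protein, which also helps factor I to break down C4b. Pros1 had log2 values of 6.79, 7.12, 7.31, 7.31 and 7.27 at 8 h and 8.28, 8.11, 8.24, 8.20 and 8.19 at 2 d, against 8.10, 7.65, 7.70, 7.78 and 7.98 in controls. The 8 h arrays lay below all controls, and the 2 d arrays lay above all controls, the nearest by a narrow gap. Pros1 differed by -0.65 ± 0.12 at 2 h (adjusted p = 9.19e-05), -0.68 ± 0.12 at 8 h (9.75e-06), -0.28 ± 0.12 at 1 d (0.0546) and 0.36 ± 0.12 at 2 d (0.0157). At 4 d its value was 0.33 ± 0.12 (0.0980) and at 16 d -0.37 ± 0.12 (0.0859). The call at 2 d was lost without control array 2 (0.31, 0.0521) and with quantile normalization (0.22, 0.124).

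C4bp had log2 values of 10.98, 11.09, 10.79, 11.19 and 10.74 at 8 h and 11.77, 11.81, 11.70, 11.74 and 12.11 at 4 d, against 11.53, 11.41, 11.39, 11.44 and 11.47 in controls. Neither treated group overlapped with control, and array 5 at 4 d was the highest. C4bp differed by -0.37 ± 0.11 at 2 h (adjusted p = 0.00795), -0.49 ± 0.11 at 8 h (0.000201), -0.17 ± 0.11 at 1 d (0.194), 0.14 ± 0.11 at 2 d (0.294) and 0.38 ± 0.11 at 4 d (0.0203). Its call at 4 d was lost without array 5 at 4 d (0.31, 0.10) and without control array 3 (0.36, 0.0544).

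Cfi and C9 had the next highest values above control and were not called. Cfi had log2 values of 12.52, 12.56, 12.50, 12.61 and 12.77 at 4 d, against 12.48, 12.12, 12.09, 12.20 and 12.53 in controls, where control array 5 lay within the range of 4 d. Its difference at 4 d was 0.31 ± 0.10 (adjusted p = 0.0566), and it passed without control array 1 (0.0313) or 5 (0.0254). C9 had log2 values of 12.65, 12.83, 12.89, 12.91 and 13.19 at 8 d, against 12.79, 12.51, 12.89, 12.23 and 12.53 in controls, where the groups overlap, and its difference was 0.30 ± 0.12 (0.368).

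The 250 bases before the start of C4bp and Pros1 are shown as the members called above control, with the same build, motifs and capitals as for Klkb1 and F11.
C4bp, chr1:130661619-130661868, reverse strand: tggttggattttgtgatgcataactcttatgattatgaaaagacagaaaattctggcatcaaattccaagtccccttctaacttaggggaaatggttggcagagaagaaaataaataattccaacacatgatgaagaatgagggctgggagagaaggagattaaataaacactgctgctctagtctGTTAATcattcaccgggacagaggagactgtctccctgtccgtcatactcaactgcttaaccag
Pros1, chr16:62854057-62854306, forward strand: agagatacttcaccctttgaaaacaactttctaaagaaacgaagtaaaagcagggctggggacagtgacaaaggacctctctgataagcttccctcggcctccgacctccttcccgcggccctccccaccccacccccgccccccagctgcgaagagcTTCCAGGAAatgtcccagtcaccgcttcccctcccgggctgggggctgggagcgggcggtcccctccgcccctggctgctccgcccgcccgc
GTTAAT was read in C4bp at -64 to -59 on the forward strand, and TTCNNNGAA in Pros1 at -92 to -84. Of the 6 motifs searched, no other was in either window.

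**Figure D4:**
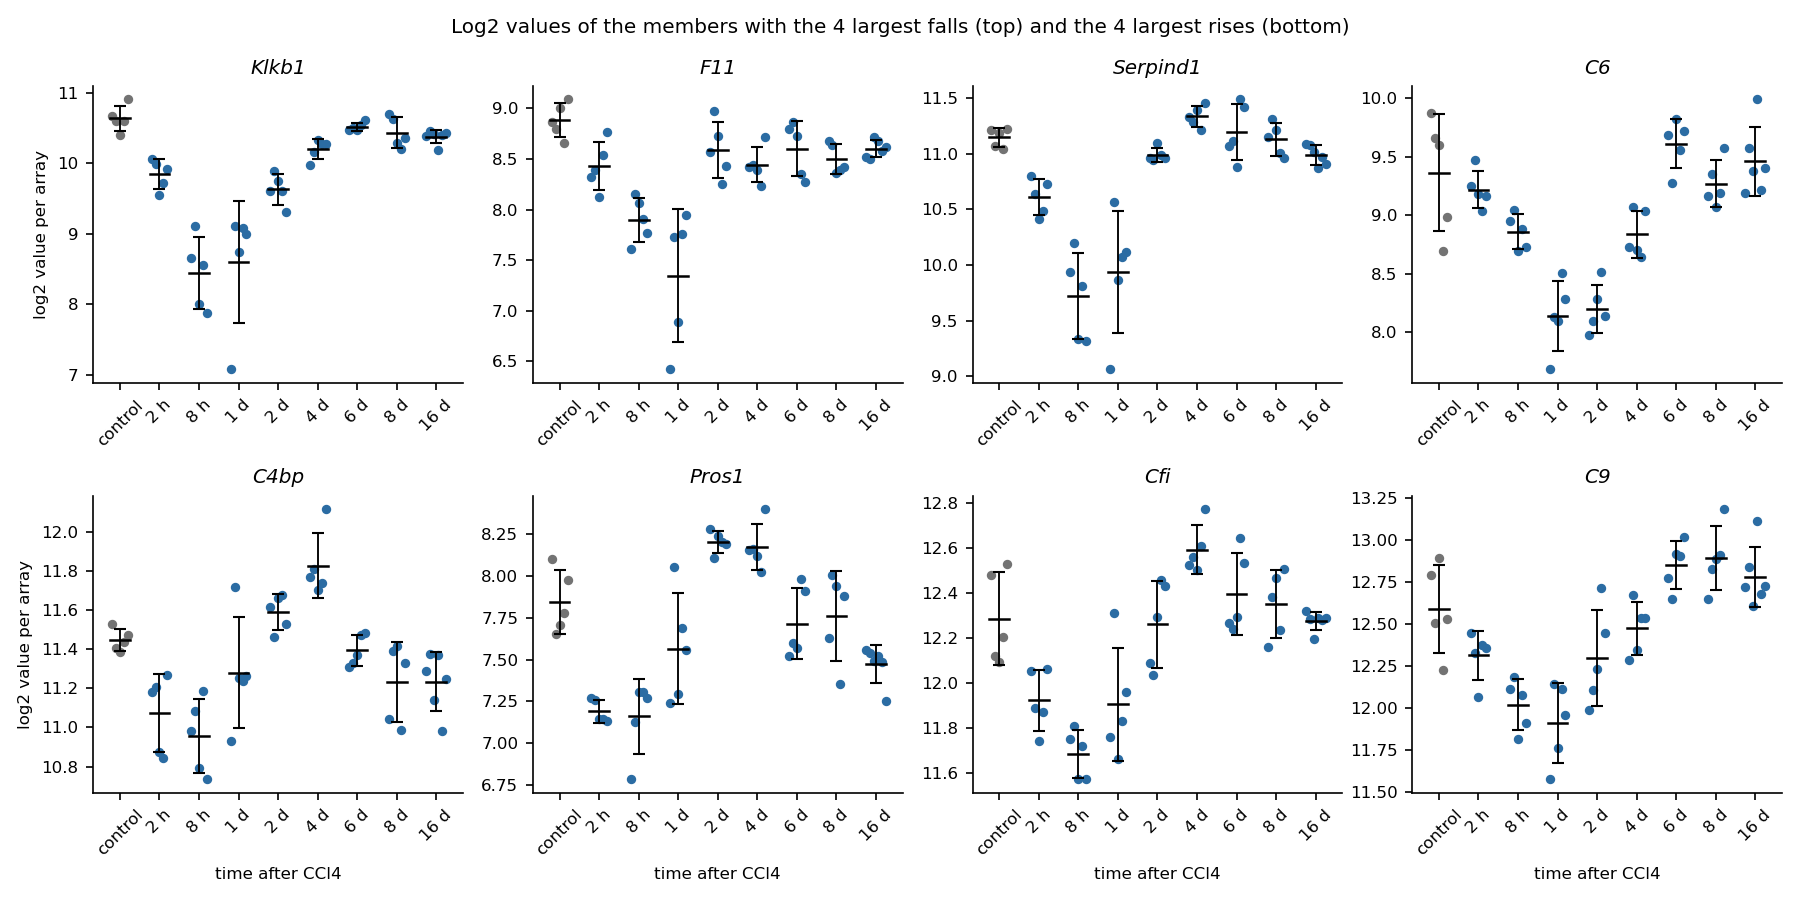
Log2 value of every array (points) with the group mean and SD (bars) for Klkb1, F11, Serpind1 and C6 (top, the 4 largest falls) and C4bp, Pros1, Cfi and C9 (bottom, the 4 highest differences above control), in controls (grey) and at 8 times after CCl4 (blue, evenly spaced; axes differ and do not start at 0). Array 1 at 1 d is the lowest of its group in the 4 top panels, at 7.08 for Klkb1 and 9.07 for Serpind1.

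Markers of other cells moved at 2 d and 4 d, when Pros1 or C4bp was called above control, and some had moved before. At 1 d the sums of monocyte-derived macrophage and neutrophil markers were 483 to 729 and 489 to 1658. Controls had 327 to 349 and 377 to 443, and neither gene was above control at 1 d. The Kupffer cell sum was 1516 to 1922 at 2 h and 1506 to 1867 at 8 h, below controls. Calls over all genes tested were 18.9% lower and 21.1% higher at 2 d, and 2.21% and 4.74% at 4 d. Of 6 Kupffer cell markers, 3 were higher at 2 d and 4 at 4 d, and their summed level was 2765 to 6448 at 2 d and 4753 to 5838 at 4 d, against 2242 to 2654 in controls. Of 5 markers of monocyte-derived macrophages tested, 2 were higher at 2 d and 2 at 4 d, with sums of 508 to 1172 at 2 d and 508 to 934 at 4 d, against 327 to 349 in controls. Of 6 stellate cell markers 4 were higher at 2 d and 2 at 4 d, with sums of 2118 to 3795 at 2 d and 2387 to 2862 at 4 d, against 1395 to 1737 in controls. Of 5 endothelial markers tested 1 was higher and 1 lower at 2 d, and 3 were higher at 4 d, with sums over the 6 listed of 1735 to 2175 at 2 d and 1955 to 2223 at 4 d, against 1602 to 1840 in controls. Of 5 platelet markers tested 1 was higher at 2 d and 1 at 4 d. Of 6 neutrophil markers 2 were higher and 2 lower at 2 d, and the 1 erythroid marker tested was lower at 2 d. The 3 cholangiocyte markers tested lay between -0.05 and 0.45 on the log2 scale against control at 2 d and between 0.08 and 0.19 at 4 d, with no call. An array reads no true zero, so no marker can be said to be at 0. The part of these cells in the values of Pros1 and C4bp was not tested.

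Some other plasma protein genes of the liver were not called in these livers. Fga, Fgb and Fgg, the genes of the fibrinogen chains, were not called at any time, with differences of 0.19 ± 0.10, 0.24 ± 0.13 and 0.16 ± 0.11 at 8 h (adjusted p = 0.137, 0.143 and 0.237) and 0.04, 0.00 and -0.02 at 1 d. Alb, the gene of albumin, was at -0.02 ± 0.04 at 8 h (0.686) and 0.02 ± 0.04 at 1 d (0.646). Saturation of their probe sets was not examined. Of 24 other plasma genes of coagulation and complement, the fibrinogen genes included, 17 were tested. Of these 6 were lower and 0 higher at 2 h, 13 and 1 at 8 h, 11 and 1 at 1 d and 9 and 1 at 2 d, with medians of -0.18, -0.39, -0.47 and -0.29. All genes tested had 19.9% lower and 6.41% higher at 2 h, and 24.2% and 17.7% at 8 h. Their shares were 25.1% and 25% at 1 d, and 18.9% and 21.1% at 2 d. Hgfac, which encodes a protease that activates hepatocyte growth factor, fell by 1.19 ± 0.10 on the log2 scale at 1 d (1.19e-12), and C1ra, the gene of a protease of the classical pathway, by 1.09 ± 0.08 (8.41e-15). Proz, the gene of protein Z, fell by 1.09 ± 0.14 at 8 h (3.14e-08), and Cfhr2, a factor H-related gene, by 1.06 ± 0.16 at 1 d (3.03e-07). The 1 gene higher at 8 h was Serpina10, which encodes the protein Z-dependent inhibitor of factor X, at 0.64 ± 0.15 (0.000450), and it was singled out after its values were seen.

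Of 13 other secreted hepatocyte proteins tested, 6 were lower at 8 h and 9 at 1 d, with medians of -0.22 and -0.25. The share of all genes tested called lower was 24.2% at 8 h and 25.1% at 1 d. Serpina6, the gene of the corticosteroid carrier, fell by 2.73 ± 0.32 on the log2 scale at 1 d (adjusted p = 1.98e-09). Igf1, the gene of a growth factor, fell by 0.44 ± 0.09 at 8 h and Fetub by 0.42 ± 0.13 at 2 d. Calls were not all downward, since Cp, the gene of the copper carrier ceruloplasmin, rose by 0.30 ± 0.10 at 1 d (0.0161) and 0.46 ± 0.10 at 2 d. Acute phase genes, which the liver turns on in inflammation, included rises of large size. Of 17 tested, 7 were higher and 1 lower at 8 h, 13 and 1 at 1 d, and 13 and 0 at 2 d. Higher and lower shares of all genes tested were 17.7% and 24.2% at 8 h, and 25% and 25.1% at 1 d. At 2 d they were 21.1% and 18.9%. Lcn2 rose by 5.65 ± 0.80 (1.46e-07), Saa2 by 4.19 ± 0.88 (0.000112) and Orm2 by 2.60 ± 0.52 at 1 d, and Saa1 by 3.21 ± 0.70 at 8 h.

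Genes of coagulation on the vessel wall and cell surface included strong rises. Of 10 tested, 1 was lower and 4 higher at 8 h and 1 lower and 6 higher at 1 d, with medians of 0.25 and 0.85. The shares over all genes tested were 24.2% lower and 17.7% higher at 8 h, and 25.1% and 25% at 1 d. Anxa2, whose product binds plasminogen at the cell surface, rose by 3.72 ± 0.22 at 1 d (adjusted p = 1.01e-16) and its partner S100a10 by 2.60 ± 0.23 at 8 h (2.57e-12). Procr, the gene of the endothelial receptor of protein C, rose by 3.46 ± 0.23 at 8 h (4.29e-15) and Thbd, the gene of the thrombin receptor thrombomodulin, by 1.91 ± 0.28 at 2 h (2.22e-06). Of 14 complement receptors and locally made complement genes tested, 6 were lower and 0 higher at 8 h, 3 lower and 8 higher at 2 d, and 0 lower and 7 higher at 4 d. All genes tested had 24.2% lower at 8 h, 18.9% lower and 21.1% higher at 2 d, and 2.21% and 4.74% at 4 d. C1qb and C1qc, genes of C1q chains that macrophages make, rose by 1.22 ± 0.19 (9.69e-06) and 1.01 ± 0.15 (3.38e-06) at 4 d. Vsig4, a receptor of C3b that is also among the Kupffer cell markers, rose by 0.96 ± 0.19 at 4 d (0.000734), and Itgb2, the gene of the beta chain of complement receptors on leukocytes, by 1.31 ± 0.24 at 2 d (2.16e-05). The Kupffer cell markers given above moved at the same times, and their part was not tested.

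Of 11 hepatocyte transcription factors tested, 3 were lower and 2 higher at 2 h, 3 were lower and 3 higher at 8 h, and 4 lower and 2 higher at 1 d. All genes tested had 19.9% lower and 6.41% higher at 2 h, and 24.2% and 17.7% at 8 h. At 1 d the shares were 25.1% and 25%. These counts of few genes do not set the list apart from all genes. Cebpd and Cebpb, inflammation-induced members of the C/EBP family, rose by 3.00 ± 0.22 (adjusted p = 5.07e-14) and 1.96 ± 0.19 (2.94e-10) at 2 h. Cebpa, the C/EBP factor of resting hepatocytes, fell by 1.14 ± 0.16 on the log2 scale at 1 d (9.73e-08) and Nr1h4, the bile acid receptor FXR, by 1.18 ± 0.16 (4.03e-08). The 3 lower at 2 h were Prox1 (-1.07 ± 0.27, 0.00262), Nr5a2 (-0.76 ± 0.14, 0.000120) and Foxa2 (-0.59 ± 0.20, 0.0270), named after their values were seen. No relation between these genes and the members was tested.

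The split of calls over all genes, the background of the member counts, moved with the scaling of the arrays. With quantile normalization of the deposited values the share of higher genes among all calls was 37.8% in place of 24.3% at 2 h, 41.6% in place of 52.7% at 2 d, 58.8% in place of 47.4% at 8 d and 53.9% in place of 27.5% at 16 d (14.7% with arrays shifted to 1 median). The shares at 8 d rest on few calls, 7 lower and 10 higher with quantile normalization and 10 and 9 without it. For the steps the share was 54.6% in place of 65.6% from 8 h to 1 d and 55.1% in place of 42.8% from 2 d to 4 d.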

How the data were processed

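Livers were profiled on 46 Affymetrix mouse arrays in 9 groups placed by the labels. The authors deposited log2 expression values, and the submitters' processing notes name oligo 1.52.0 and the RMA method. This method corrects the background, sets the arrays to common quantiles and summarises probes into probe sets. Of 45101 probe sets 34945 named 1 gene, and 0 per-sample columns were left unused. A gene was tested where 5 or more arrays lay above 5.55823, the median over the whole table. All arrays entered 1 limma fit of 9 group means (limma 3.58.1, R 4.3.3, 37 residual degrees of freedom), with Benjamini-Hochberg adjustment over all 13239 genes within each contrast and calls at an adjusted p under 0.05. The script was tested on simulated data. The median standard error for 5 arrays against 5 was 0.0966, and the number of arrays limits the precision. No scan date or batch was given in the sources used here. Motif searches and plots used Python 3.11.15, pandas 2.3.3 and matplotlib 3.10.9.

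The members and the other lists were chosen with earlier results of these data known. All members are named, with the values of every array for the 4 with the largest falls and the 4 with the highest differences above control. Of each other list up to 4 called genes with the largest change are named, and Fga, Fgb, Fgg and Alb in any case. The alternatives were other array scalings, filters and probe set rules, only the groups compared, array weights, a replicate block, a Gapdh covariate, the fit without arrays 1 and 2 at 1 d, and each array left out in turn. A change of sign of an uncalled value was not counted as a change. Of 180 pairs of arrays that share a number across groups, 40 had deviations correlated above 0.1 (median 0.00932). Of 760 pairs with other numbers, 156 did (median -0.00402). These values showed no clear pairing by number and do not exclude one.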

Additional observations from a re-analysis of the deposited data

Results flagged for a closer look

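Of 270 sets of 1 gene in 1 group, 12 held an array far from the others by Dixon's test, where chance gives about 1 in 20. This number is not above that share, so the arrays are listed only and not shown to be faulty. At 1 d array 1 was low for Klkb1, at 7.08 with the nearest array at 8.74, and for Masp1, at 8.55 with the nearest at 9.67. At 4 d array 5 was high for C4bp, at 12.11 with the nearest at 11.81, and for Masp2, at 8.98 with the nearest at 8.92, and array 2 was low for Apoh, at 13.53 with the nearest at 13.58. At 2 h array 5 was high for Proc, at 11.20 with the nearest at 11.05. At 8 h array 4 was high for F12, at 10.57 with the nearest at 10.29. At 8 d array 2 was low for C8b, at 10.39 with the nearest at 10.50. At 16 d array 4 was low for Klkb1 (10.19, nearest 10.38), array 6 for Pros1 (7.25, nearest 7.48) and array 3 for Cfi (12.20, nearest 12.28). In controls array 3 stood out for F7, at 9.76 with the nearest at 9.69.

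Pros1 and C4bp differed between times in the direction of their difference from control. Pros1 was higher at 2 d than at 8 h by 1.04 on the log2 scale (limma, adjusted p = 1.71e-09), and C4bp was higher at 4 d than at 8 h by 0.87 (5.56e-09). The times compared are those of each gene's lowest and highest mean, picked from these same data. These p-values therefore do not test whether either gene lay above control, which rests on the calls given above.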

How the results depend on the processing

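The counts of members lower at 8 h, 1 d and 2 d stayed within 1.5 times their reported values under every alternative run (28 to 30, 26 to 29 and 15 to 21 outside the left-out arrays). At 2 h 13 were lower with the Gapdh covariate, and up to 27 in the other settings. Members lower at 4 d numbered 1 with arrays shifted to 1 median, with no filter, with the replicate block and with the Gapdh covariate, 6 with only the groups compared, 8 with array weights and 7 without arrays 1 and 2 at 1 d. Members higher at 4 d numbered 2 with probe sets averaged, with the replicate block or the Gapdh covariate, 3 with only the groups compared or without arrays 1 and 2 at 1 d, and 4 with array weights. At 2 d 0 were higher with quantile normalization. At 16 d 1 was lower with arrays shifted to 1 median, the stricter filter or only the groups compared, 4 with array weights and 3 without arrays 1 and 2 at 1 d. At the step from 8 h to 1 d 12 were lower with quantile normalization and 2 with only the groups compared, and 0 were higher with only the groups compared, 6 with array weights and 5 without arrays 1 and 2 at 1 d. From 1 d to 2 d 9 were higher with only the groups compared. Leaving out each array in turn gave 0 to 1 higher at 2 d, 0 to 2 lower and 0 to 3 higher at 4 d, 0 to 1 lower at 16 d, and 3 to 13 lower and 0 to 7 higher at the step from 8 h to 1 d. Lower calls at 4 d came to 0 without array 1 at 4 d or control array 2 or 3, and higher calls to 0 without array 5 at 4 d or control array 3 and to 3 without control array 1. With its probe sets averaged, Masp1 at 4 d was at 0.23 (limma, adjusted p = 0.00980) in place of -0.34. The cause of these changes was not tested, apart from fewer arrays entering a fit. Of 46 arrays 14 correlated best with their own number, which neither shows nor excludes a pairing of arrays between groups. The replicate block moved no other count of members by over 1.5 times. How far a signal lay above background was not given with these values, and the number of arrays limits what can be called.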
